A study of Mus musculus with 13 samples.

Results

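The Oct4-GFP-positive colonies that formed when mouse embryonic fibroblasts (MEF) were treated with small molecules were compared with the untreated fibroblasts, to describe which genes set the colonies apart from the cells at the start. The colonies had 1 RNA-seq library and MEF had 3, out of 13 libraries in the series. The deposited values were RPKM (reads per kilobase of gene, scaled to library depth). The colonies were set against MEF replicate 3, which carries the same fill value for unread genes, on the scale log2(RPKM + 1). Of 15176 genes with a unique symbol, 2954 (19.5%) reached 5 RPKM in the higher of these 2 libraries and were compared. A gene is called higher or lower in the colonies where the difference was 1 or more on that scale (2-fold in RPKM + 1) and the colonies also lay outside the range of all 3 MEF libraries. With 1 colony library no test can be made, and no p-value is given.

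The colonies were picked for GFP driven by Oct4, the protein of Pou5f1, so that high Pou5f1 is part of how they were selected. Their labelled source is MEF of the C57xICR strain at the embryo stage, with the treatment coded VC6TF+Z. The labels do not give how many colonies were pooled. MEF were fibroblasts of the same strain and stage with no treatment, and nothing in the labels says whether the 3 libraries came from separate cultures. Values of 3 further groups are given beside some results. They are 1 library of Oct4-GFP-positive clusters (C57xICR, VC6TF+Z), 2 libraries of GFP-negative cells (C57xICR, VC6TF) and embryonic stem cells (ESC) of the untreated R1 line, strain 129. Of 4 ESC libraries, replicates 1 to 3 share the gene-span scale of the colonies and MEF. ESC replicate 4 and the 2 lines of chemically induced pluripotent stem cells (labelled VC6TFMB+Z) are on another scale and were not used here.

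Fibroblasts are connective-tissue cells that secrete collagen and elastic fibres and pull on their matrix with actin cables. To become pluripotent they have to lose this state, take on epithelial contacts (keratins, claudins, cadherins) and switch on a network of transcription factors built around Oct4, Sox2 and Nanog. In chemical reprogramming of mouse cells, a state that resembles extraembryonic endoderm, the tissue that lines the yolk sac and is marked by Gata4 and Gata6, is known as an intermediate.

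Of 2954 genes compared, 639 (21.6%) were higher in the colonies and 389 (13.2%) were lower. The markers of the colonies and of MEF were chosen with earlier results of these data known. Their directions are therefore a description and not a check of identity. Dppa5a, which binds RNA in pluripotent cells, had 513 RPKM in the colonies, against 0, 0 and 0.832 RPKM in MEF replicates 1, 2 and 3. Pou5f1 had 124 RPKM in the colonies, against 0, 0 and 0.154 RPKM in MEF. No MEF library came near the colonies in either gene. The simple-epithelium keratins Krt8 and Krt18, which pair into filaments, had 30.8 and 34.1 RPKM in the colonies, while in MEF they had at most 0.45 and 0.873 RPKM. The claudin Cldn6, a tight-junction protein of early embryonic epithelia, had 24.8 RPKM in the colonies, against 0, 0 and the fill value of 0.001 RPKM in MEF. The fibroblast surface protein Thy1 had 3.97 RPKM in the colonies, against 186, 163 and 56.8 RPKM in MEF. The type I collagen chain Col1a1 had 25.6 RPKM in the colonies, against 338, 292 and 1824 RPKM in MEF. All 7 markers lay outside the MEF range.

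**Figure D1:**
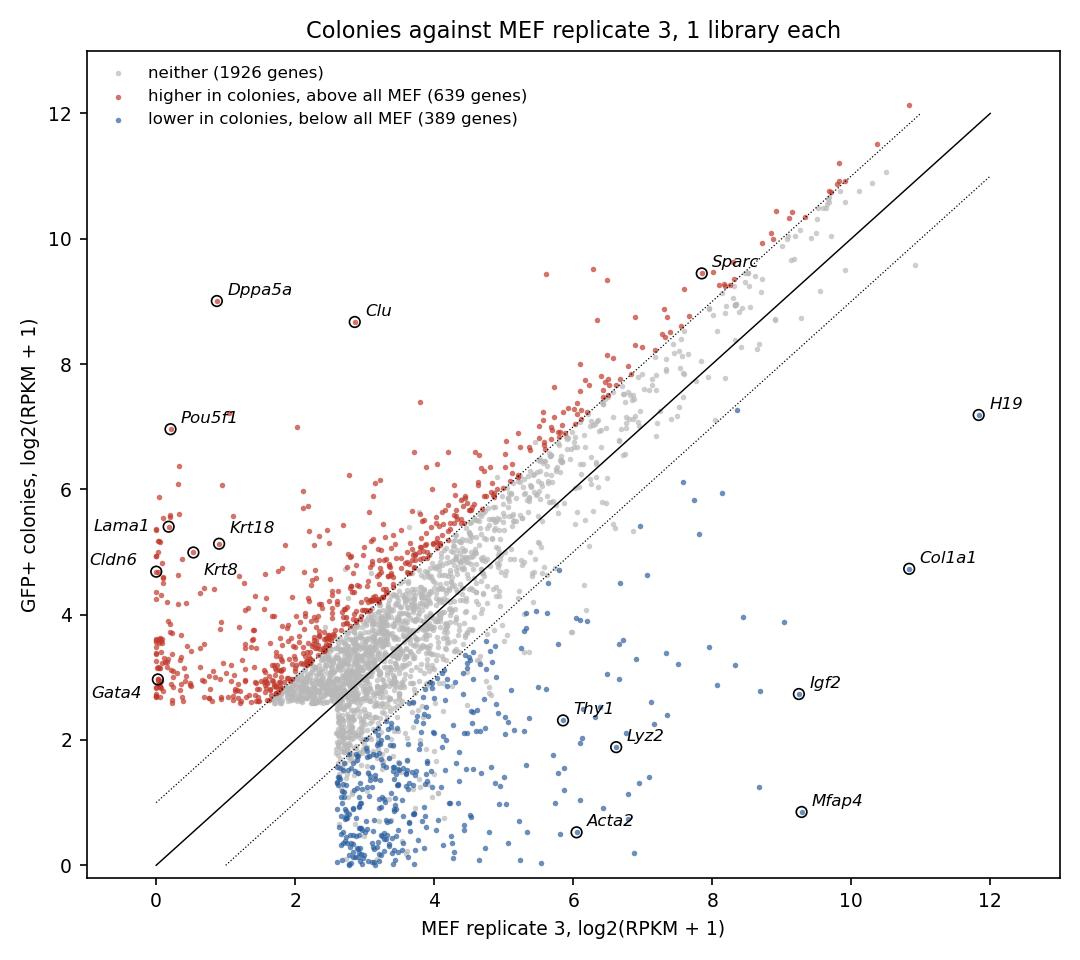
Each point is 1 of 2954 genes, with its level in the colonies on the vertical axis and in MEF replicate 3 on the horizontal axis, both as log2(RPKM + 1); the solid line marks equal levels and the dotted lines a difference of 1. The 639 genes higher in the colonies and 389 lower ones are coloured, and 16 named genes are circled, among them Dppa5a and Pou5f1 at the upper left and Mfap4 and Col1a1 at the lower right.

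The 3 MEF libraries were not alike, and this bears on every count. At the same threshold and floor, MEF replicate 3 differed from MEF replicate 1 in 46.5% of genes (964 higher and 280 lower of 2673) and from MEF replicate 2 in 45.9%, while replicates 1 and 2 differed from each other in 8.5% of 2061. The colonies differed from MEF replicate 3 in 39.7%. The median difference of the 2954 genes was 0.38 against MEF replicate 3, 0.85 against replicate 1 and 0.84 against replicate 2. Summed RPKM was 164054 in the colonies, against 74259, 72329 and 119415 in MEF replicates 1, 2 and 3, and estimated depth was 10.04 M reads in the colonies, against 11.86, 17.74 and 9.61 M in MEF. Scaled to the median ratio of 1142 genes at 5 RPKM or more in all 4 libraries, which lowers the colonies by 0.33 (log2), 335 genes were higher and 519 lower. The balance of higher to lower calls therefore depends on the scaling, and differences of single genes are read against this shift of 0.33. Of the genes past the threshold against MEF replicate 3, 18 higher and 126 lower ones lay inside the range of the 3 MEF libraries and were not called.

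The floor of 5 RPKM also shapes the calls. Among the compared genes 628 reached it in the colonies alone and 568 in MEF replicate 3 alone, and a gene that reached it in 1 library alone tended to differ by construction. In the 1758 genes at the floor in both libraries, 297 were higher and 71 lower in the colonies, with a median of 0.39. Counts of list members below are descriptions for the same reason. Each stands beside 21.6% higher and 13.2% lower over the 2954 genes compared. Lists overlap in some members.

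**Figure D2:**
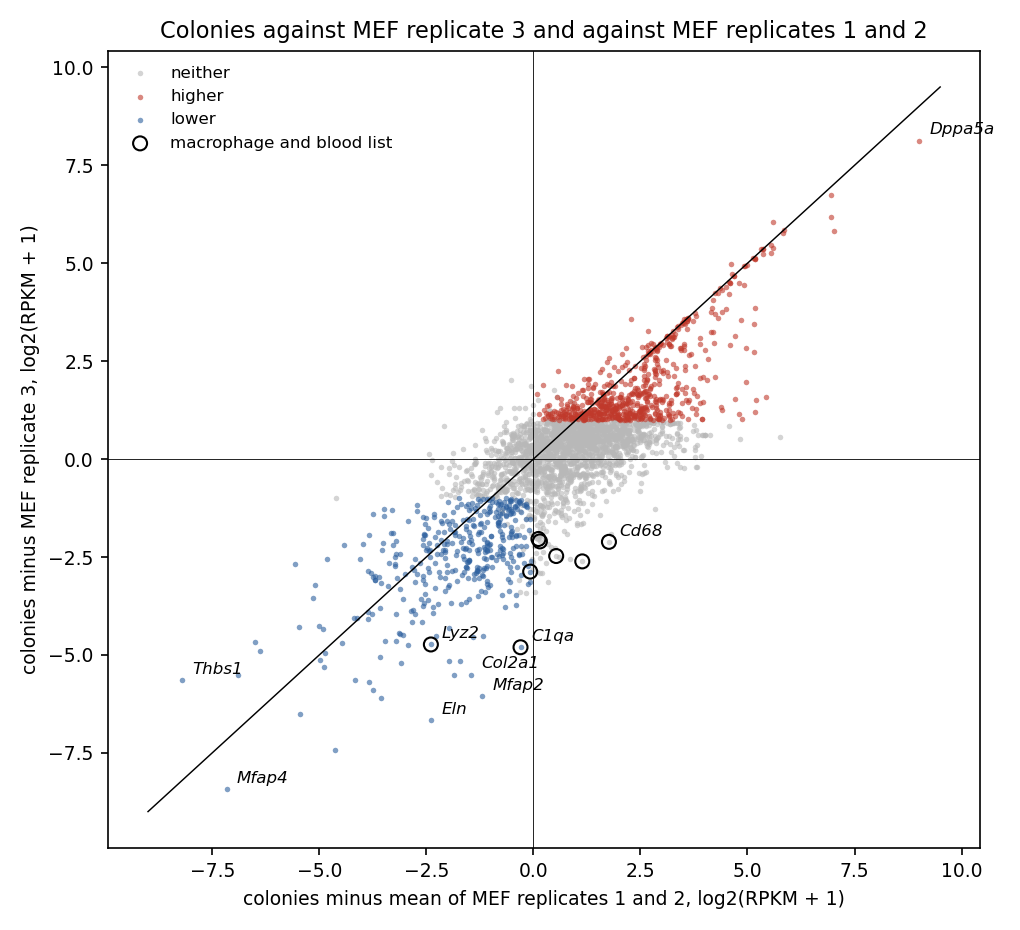
For each of the 2954 genes, the difference between the colonies and MEF replicate 3 (vertical axis) is set against the difference between the colonies and the mean of MEF replicates 1 and 2 (horizontal axis), both in log2(RPKM + 1), and the solid line marks equal differences. The 8 circled macrophage and blood genes lie at −2.04 or below against MEF replicate 3 and mostly near 0 against replicates 1 and 2, while Dppa5a and Mfap4 lie far out on both axes.

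The pluripotency genes were split in the colonies. Of 38 measured members of the list 9 reached the floor, with 8 higher and 1 lower in the colonies. The floor was reached in the colonies alone by 7 of the 9 and in MEF replicate 3 alone by 1, which set the direction of these. The median over all 38 was 0.98, against −0.001 over all 15176 genes. By estimated reads Pou5f1 was 807-fold higher in the colonies than in MEF replicate 3 (95% counting interval 391 to 2010), and Dppa5a 617-fold (325 to 1350). Their log2 differences were 6.75 and 8.13. In ESC replicates 1, 2 and 3, Pou5f1 had 86.2, 95.7 and 152 RPKM and Dppa5a 691, 552 and 687 RPKM, so the colonies lay within the ESC range for Pou5f1 and just under it for Dppa5a. Summed RPKM was 80708, 80062 and 142311 in these ESC libraries, against 164054 in the colonies. ESC replicate 3, which alone among them has the fill value of the colonies, was above the colonies in both genes.

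Other members of the network were at low levels. Sall4, a zinc-finger partner of Oct4, had 4.85 RPKM in the colonies, against 0, 0 and 0.0106 RPKM in MEF (ESC 13.6 to 15.4), which kept it just under the floor. Sox2, the DNA-binding partner of Oct4, had 2.80 RPKM in the colonies, against 0.24, 2.09 and 0.889 RPKM in MEF (ESC 90.0 to 105). The colonies had about 58 Sox2 reads, 3.09-fold over MEF replicate 3 with an interval of 1.79 to 5.57, and lay only a little above MEF replicate 2. Nanog, which stabilises the network, had 0.0418 RPKM in the colonies, against 0.059, 0.0473 and 0.0437 RPKM in MEF (ESC 51.7 to 55.4). The colonies had about 3 Nanog reads, at the floor of detection, and lay at the MEF level. Intervals and floors cover counting error only and leave out the spread between libraries. Since PCR copies of a molecule were not told apart, the counting error itself may be larger than given.

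The same low level was seen in further genes that were high in ESC. The growth factor Fgf4 was at the fill value in the colonies and in MEF replicate 3, against 33.6 to 53.3 RPKM in ESC. The signal Nodal was at the fill value in the colonies, against 0, 0 and 0.0282 RPKM in MEF (ESC 7.76 to 10.2). Its co-receptor Tdgf1 had 0.259 RPKM in the colonies, against 0, 0 and 0.0318 RPKM in MEF (ESC 53.6 to 61.8). The hydroxylase Tet1, which oxidises methylated cytosine, had 0.0818 RPKM in the colonies, against 0.076, 0.164 and 0.185 RPKM in MEF (ESC 6.37 to 9.94). The orphan nuclear receptor Esrrb had 0.482 RPKM in the colonies, against at most 0.00259 RPKM in MEF (ESC 2.31 to 2.81). These values are per kilobase of gene span, so the small ESC values do not show that Esrrb is low in ESC. Unlike Nanog, Esrrb was above MEF, with about 777 reads in the colonies and 4 in MEF replicate 3, 186-fold (72.4 to 685).

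The remaining called members were Klf4, Klf5, Tbx3, Nr0b1, L1td1 and Tcl1 on the higher side and Klf2 on the lower. Klf4, Klf5 and Klf2 are zinc-finger factors that can stand in for each other in mouse stem cells. Klf5 had 12.9 RPKM in the colonies, against 1.82, 0.988 and 1.29 RPKM in MEF, and Klf4 had 49.9 RPKM in the colonies, against 20.6, 14.2 and 22.0 RPKM in MEF (log2 difference 1.15). Klf2 had 1.90 RPKM in the colonies, against 9.93, 12.4 and 22.6 RPKM in MEF. Nr0b1, a nuclear receptor that binds Oct4, had 6.43 RPKM in the colonies, against 0, 0 and 0.0249 RPKM in MEF, and L1td1, an RNA-binding protein, had 6.89 RPKM in the colonies, against 0, 0 and 0.0177 RPKM in MEF. Tcl1, a co-activator of the kinase Akt, had 8.61 RPKM in the colonies, against 0, 0 and 0.001 RPKM in MEF, where no read was recovered. Counting from a floor of 3 reads it was at least 167-fold higher in the colonies than in MEF replicate 3.

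**Figure D3:**
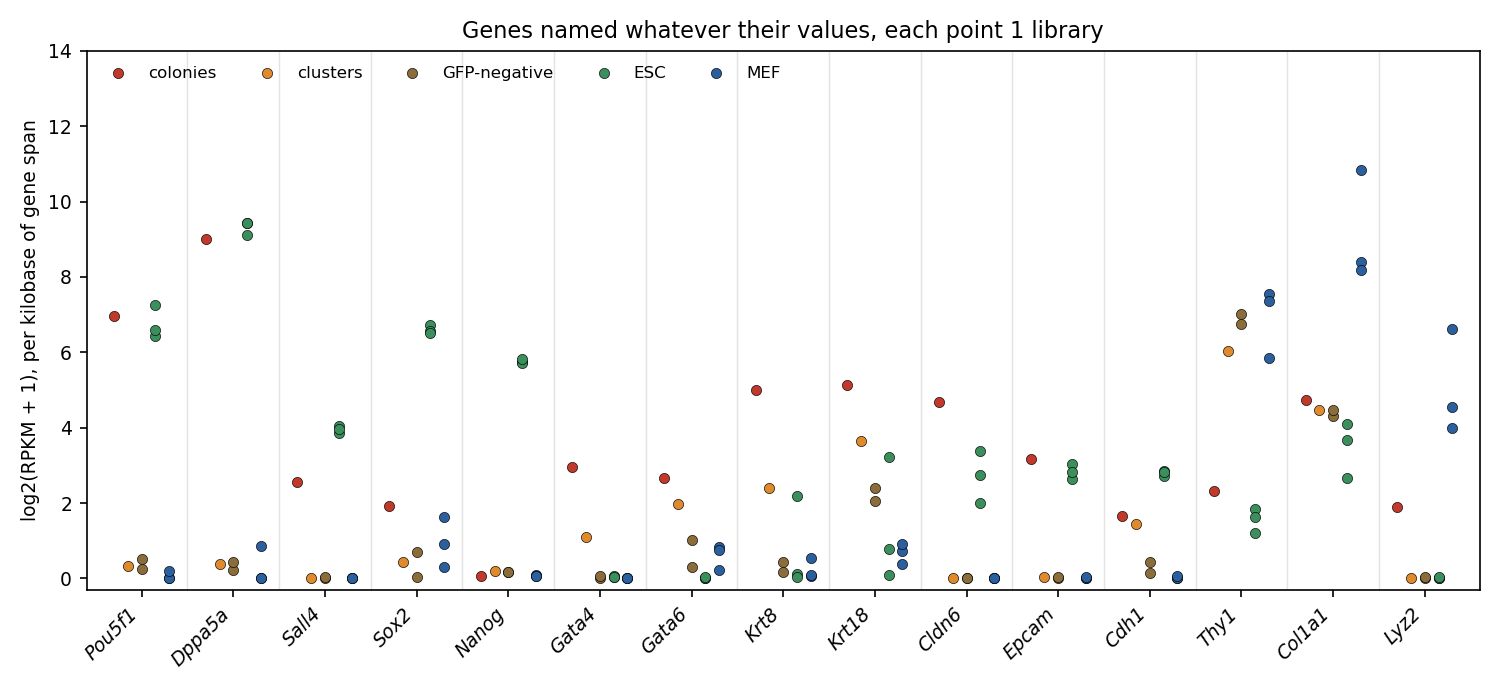
Levels of 15 genes named whatever their values, as log2(RPKM + 1) per kilobase of gene span, with 1 point per library and groups from left to right as colonies, clusters, GFP-negative, ESC and MEF. The colonies lie near ESC in Pou5f1 and Dppa5a, near MEF in Nanog, and above every other library in Gata4, Gata6, Krt8, Krt18 and Cldn6.

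The promoter of Pou5f1 is shown because its expression defines the colonies, those of Krt8 and Krt18 because the 2 genes form 1 filament and were high together, and that of Cyp26a1, which clears retinoic acid, because its gene is a classical retinoid target. The sequences are RefSeq promoters of GRCm38.p6 from 250 bases before to 50 bases after the start of the gene, 5′ to 3′ along the gene. Capitals mark the half-site AGGTCA of nuclear receptors in the first 3, and in Cyp26a1 the direct repeat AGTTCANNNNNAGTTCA of retinoic acid receptors, here as its reverse complement.
Pou5f1: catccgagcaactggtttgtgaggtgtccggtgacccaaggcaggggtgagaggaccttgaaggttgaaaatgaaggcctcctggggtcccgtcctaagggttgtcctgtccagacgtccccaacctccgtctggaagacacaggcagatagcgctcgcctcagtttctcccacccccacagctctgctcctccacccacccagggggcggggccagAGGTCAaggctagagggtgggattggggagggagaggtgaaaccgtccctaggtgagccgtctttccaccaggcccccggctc
Krt8: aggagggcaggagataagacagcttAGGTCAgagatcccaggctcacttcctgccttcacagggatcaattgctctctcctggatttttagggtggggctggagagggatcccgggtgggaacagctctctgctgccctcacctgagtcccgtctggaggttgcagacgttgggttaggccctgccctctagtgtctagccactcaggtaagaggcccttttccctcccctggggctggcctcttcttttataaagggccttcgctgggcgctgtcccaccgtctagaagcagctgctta
Krt18: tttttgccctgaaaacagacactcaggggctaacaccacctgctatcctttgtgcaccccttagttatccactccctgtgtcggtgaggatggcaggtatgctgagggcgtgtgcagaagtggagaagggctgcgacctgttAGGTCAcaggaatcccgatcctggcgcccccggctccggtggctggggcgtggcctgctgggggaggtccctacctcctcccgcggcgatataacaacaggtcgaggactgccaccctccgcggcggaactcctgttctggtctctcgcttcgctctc
Cyp26a1: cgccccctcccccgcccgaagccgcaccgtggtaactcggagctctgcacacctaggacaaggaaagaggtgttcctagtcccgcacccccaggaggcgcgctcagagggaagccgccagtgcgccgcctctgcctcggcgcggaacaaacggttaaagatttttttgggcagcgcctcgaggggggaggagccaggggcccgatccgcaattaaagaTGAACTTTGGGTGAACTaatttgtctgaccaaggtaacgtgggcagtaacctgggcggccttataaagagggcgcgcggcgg
They lie at chr17:35505782-35506081 (plus strand), chr15:102004293-102004592 (minus strand), chr15:102027966-102028265 (plus strand) and chr19:37697558-37697857 (plus strand). Searched on both strands, AGGTCA was in 5340 of 32851 promoters (16.3%), so a match is common. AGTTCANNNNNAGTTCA was in 8 of 32851 (0.0244%), and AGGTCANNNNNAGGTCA, which holds the AGGTCA half-site in both arms, in 3 (0.00913%). A match describes the letters only. Promoters on a single chromosome were left out of the search and of these counts. Of 132 named genes 84 had a promoter among those searched.

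Among the gene lists, that of extraembryonic endoderm had the most members called higher, 14 of the 639 higher genes. The lists differ in size and were chosen with earlier results of these data known. Of 27 measured members 19 reached the floor, with 14 higher and 0 lower in the colonies. Over all 2954 genes compared 21.6% were higher and 13.2% lower. The median over all 27 was 2.01, against −0.001 over all 15176 genes. In lists with fewer members at the floor, such as keratins, tight junctions, epithelial adhesion and endothelial genes, all of those members were higher too. Of the 19, 10 reached the floor in the colonies alone. The transcription factor Gata4 had 6.82 RPKM in the colonies, against 0.00347, 0.000774 and 0.0171 RPKM in MEF, 397-fold by reads over MEF replicate 3 (interval 227 to 769). Gata6 had 5.39 RPKM in the colonies, against 0.774, 0.167 and 0.687 RPKM in MEF, 7.83-fold by reads (6.81 to 9.05). After scaling to the median ratio it fell under the floor of 5 RPKM and was not called, with a log2 difference of 1.65. Foxa2, a forkhead factor of endoderm, had 21.6 RPKM in the colonies, against 0, 0.0135 and 0.0748 RPKM in MEF. In ESC replicates 1 to 3 none of these 3 genes exceeded 0.0431 RPKM, and the clusters held 1.14 RPKM of Gata4, 2.90 of Gata6 and 0.0538 of Foxa2. The 2 GFP-negative libraries held 2.08 and 5.25 RPKM of Foxa2, 0.243 and 1.02 of Gata6 and at most 0.0426 of Gata4.

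The secreted products of this tissue were high as well. Lama1, the laminin chain of the first embryonic basement membrane, had 41.3 RPKM in the colonies, against 0.0161, 0.0296 and 0.133 RPKM in MEF, 311-fold by reads (267 to 366). Its partner chains were also higher, with Lamb1 at 58.4 RPKM in the colonies, against 2.58, 2.79 and 7.66 RPKM in MEF, and Lamc1 at 33.7 RPKM in the colonies, against 6.67, 6.88 and 3.84 RPKM in MEF. The type IV collagen chains followed, with Col4a1 at 95.5 RPKM in the colonies, against 10.1, 8.83 and 12.1 RPKM in MEF, and Col4a2 at 42.5 RPKM in the colonies, against 5.24, 4.74 and 8.58 RPKM in MEF. These 5 genes are the higher members of the basement membrane list too, of which 10 of 18 measured members reached the floor, with 5 higher and 1 lower (Agrn, a heparan sulfate proteoglycan). The laminin chain Lamb2, the linkers Nid1 and Nid2 and the proteoglycan Hspg2 were not called, and the median over the 18 was −0.21. The median of the 10 at the floor was 0.77. Per kilobase of exon, where 7206 genes reached the floor, the median of the members then at the floor was −1.12.

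Further members with large differences were Srgn, the core protein of secretory-granule proteoglycan, with 45.9 RPKM in the colonies and at most 0.068 RPKM in MEF, and the transcriptional co-activator Cited1, with 27.3 RPKM in the colonies and at most 0.2 RPKM in MEF. Apoa1, an apolipoprotein made by visceral endoderm, had 17.4 RPKM in the colonies, against 0, 0 and 0.11 RPKM in MEF. Sparc, a collagen-binding matrix protein made in bulk by parietal endoderm, had 697 RPKM in the colonies, against 167, 172 and 230 RPKM in MEF. The members at the floor that were not called were Pdgfra, Fst, Apoe, Thbd and Snai1. Apoe, an apolipoprotein, was decided by a single MEF library, with 332 RPKM in the colonies, against 22.6, 23.7 and 321 RPKM in MEF replicates 1, 2 and 3.

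Few epithelial genes reached the floor. All of those that did, in 3 lists, reached it in the colonies alone, so that their direction was set by the floor. Of 12 measured keratin and desmosome genes 2 reached the floor, Krt8 and Krt18, both higher, at 67.9-fold (48.4 to 98.2) and 39.4-fold (27.8 to 57.8) by reads over MEF replicate 3. Of 20 tight-junction genes 2 reached it, Cldn6 (at least 253-fold) and Lsr, a protein of tricellular junctions, with 5.97 RPKM in the colonies, against 0.704, 0.376 and 0.262 RPKM in MEF. Of 19 genes of epithelial adhesion and its regulators 4 reached it, all higher. Among them were Epcam, an adhesion molecule, with 7.98 RPKM in the colonies, against 0, 0 and 0.0206 RPKM in MEF, and Elf3, an epithelial transcription factor, with 30.8 RPKM in the colonies, against 0, 0 and 0.0212 RPKM in MEF. Medians over all members of these 3 lists were 0.32, 0.26 and 0.21. Cdh1, the E-cadherin gene, stayed under the floor with 2.15 RPKM in the colonies, against 0, 0.00168 and 0.0435 RPKM in MEF, 49.4-fold by reads (34.1 to 74.6), and ESC held 5.56 to 6.22 RPKM. The floor is per kilobase of gene span, so a gene of long span can stay under it with many reads. In the colonies Cdh1 had about 1445 reads and Krt18, far above the floor, about 1316. How few genes reached the floor therefore also depends on gene span.

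The 15 largest differences on the higher side included those of Dppa5a, Pou5f1, E130012A19Rik, Dusp9, Dpcr1, Clu, Gjb5, Srgn, Wfdc12, Rhox9, Cyp26a1, Foxq1, Lama1 and Trap1a, and 13 of the 15 were under 1 RPKM in all MEF libraries. Clu, a secreted chaperone, had 407 RPKM in the colonies, against 1.70, 2.68 and 6.25 RPKM in MEF, 65.1-fold by reads (60.7 to 70.0). Dusp9, a phosphatase of ERK, had 82.0 RPKM in the colonies, against 0.885, 0.578 and 0.254 RPKM in MEF. The connexin gene Gjb5, whose protein forms gap junctions in epithelia and placenta, had 66.8 RPKM in the colonies and at most 0.367 RPKM in MEF.

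Cyp26a1, whose promoter is given above, had 39.9 RPKM in the colonies, against 0, 0 and 0.001 RPKM in MEF, at least 478-fold over MEF replicate 3. It stood alone in the retinoid list, where 3 of 16 measured genes reached the floor and Crabp1, which binds retinoic acid in the cytoplasm, was lower, with 0.155 RPKM in the colonies, against 1.90, 2.82 and 6.13 RPKM in MEF. Rhox9 and Rhox6, homeobox genes of the X chromosome expressed in placenta and germ cells, had 40.1 and 34.9 RPKM in the colonies and at most 0.037 RPKM in MEF. Among the 15, Dppa5a, Pou5f1, E130012A19Rik and Trap1a exceeded 10 RPKM in all 3 gene-span ESC libraries, 7 were under 1 RPKM in all of these, and Clu, Gjb5 and Wfdc12 were among those that exceeded 1 RPKM in the clusters.

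**Figure D4:**
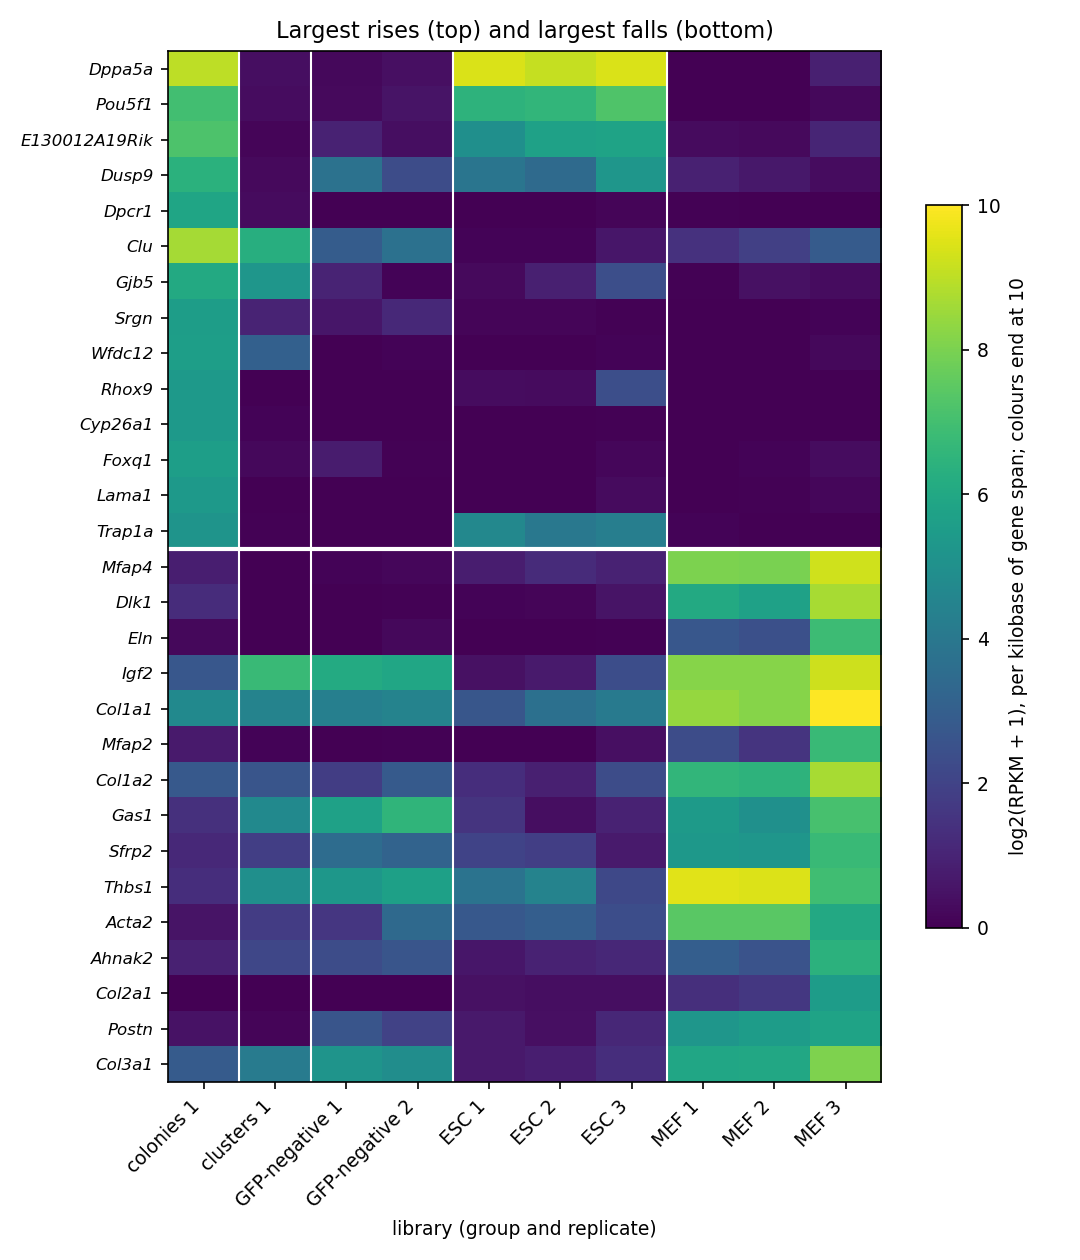
Levels of genes with the largest differences on the higher side (top) and on the lower side (bottom) in 10 libraries on the gene-span scale, from the colonies on the left to MEF replicate 3 on the right, coloured by log2(RPKM + 1) with colours ending at 10. The upper genes are dark in all MEF libraries except for Clu in part, and each lower gene is darker in the colonies than in any MEF library, with MEF replicate 3 brighter than replicates 1 and 2 for 13 of 15.

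The fibroblast programme lay lower in the colonies in nearly every member. Of 25 measured genes of fibroblast identity 22 reached the floor, with 21 lower and 1 higher (Sparc, described above). Of the 22, 17 reached the floor in MEF replicate 3 alone, and the median over all 25 was −3.76. Without Sparc the summed level of the list was 77.0 RPKM in the colonies, against 1527, 1409 and 3555 RPKM in MEF. In a bulk sample, fewer cells of a type and less RNA of its genes per cell cannot be told apart. Col1a1 was 71.3-fold lower in the colonies than in MEF replicate 3 by reads (69.2 to 73.5), with log2 differences of −6.10 against replicate 3 and −3.68 and −3.46 against replicates 1 and 2. Thy1 was 14.3-fold lower (12.4 to 16.6). Postn, a matrix protein of wounded and growing tissue, had 0.419 RPKM in the colonies, against 37.4, 45.3 and 55.3 RPKM in MEF, and among the 15 largest differences on the lower side it was the gene with the smallest spread over the 3 MEF libraries (SD 0.28 of log2(RPKM + 1)).

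Mfap4, a protein of elastic microfibrils, had the largest difference from MEF replicate 3 on the log2(RPKM + 1) scale, with 0.803 RPKM in the colonies, against 263, 253 and 623 RPKM in MEF (log2 difference −8.43, and −7.19 and −7.14 against replicates 1 and 2). Against replicates 1 and 2, Dppa5a differed by more (9.01). By reads it was 775-fold lower in the colonies than in MEF replicate 3 (536 to 1170). Dlk1, a Notch-like inhibitor of fat-cell differentiation, had 1.39 RPKM in the colonies, against 65.6, 51.2 and 409 RPKM in MEF. Col1a2, the second chain of type I collagen, had 5.86 RPKM in the colonies, against 95.4, 86.9 and 410 RPKM in MEF, and the other collagens among the 15, Col3a1 and Col2a1, were lower too. Some of these differences were set mainly by MEF replicate 3. Elastin (Eln) had 0.149 RPKM in the colonies, against 5.62, 4.50 and 116 RPKM in MEF, the microfibril gene Mfap2 0.663 RPKM in the colonies, against 4.03, 1.86 and 110 RPKM in MEF, and the cartilage collagen Col2a1 0.0205 RPKM in the colonies, against 1.53, 2.10 and 45.4 RPKM in MEF. Set against MEF replicate 2 instead, Eln, Mfap2, Col2a1 and Ahnak2 (a giant scaffold protein) did not reach the floor of 5 RPKM, and against replicate 1 the same held for Mfap2 and Col2a1.

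Contractile and TGF-beta response genes were lower in 10 of the 11 that reached the floor among 17 measured, with a median of −2.55 over the 17. Of the 11, 7 reached the floor in MEF replicate 3 alone. In Acta2, Tagln, Thbs1 and Cyr61, MEF replicate 3 was the lowest of the MEF libraries, while Fn1 and Tgfbi were highest there. The smooth-muscle actin gene Acta2 had 0.44 RPKM in the colonies, against 171, 171 and 65.2 RPKM in MEF, and was 148-fold lower by reads (116 to 193). The actin-binding protein gene Tagln had 1.3 RPKM in the colonies, against 241, 178 and 57.3 RPKM in MEF. Thbs1, an adhesive matrix protein that activates TGF-beta, had 1.48 RPKM in the colonies, against 759, 703 and 122 RPKM in MEF. Cyr61, a matricellular target of mechanical signalling, had 8.26 RPKM in the colonies, against 410, 410 and 181 RPKM in MEF, while its relative Ctgf had 25.8 RPKM in the colonies, against 641, 659 and 52.5 RPKM in MEF. Ctgf lay below all 3 MEF libraries and missed the threshold narrowly against MEF replicate 3 (log2 difference −0.996), with −4.58 and −4.62 against replicates 1 and 2.

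Mesenchymal regulators and matrix-remodelling enzymes were lower as well. Of 11 genes for EMT (epithelial to mesenchymal transition) factors and mesenchymal adhesion 5 reached the floor and 4 were lower, with a median of −2.20 over the 11. The repressor Snai2 had 0.309 RPKM in the colonies, against 16.4, 12.4 and 5.57 RPKM in MEF, Twist1 3.48 RPKM in the colonies, against 33.4, 19.5 and 34.4 RPKM in MEF, and the intermediate filament gene Vim 37.9 RPKM in the colonies, against 169, 156 and 223 RPKM in MEF. The related repressor Snai1 was not called, with 18.4 RPKM in the colonies, against 7.81, 8.14 and 13.1 RPKM in MEF. Of 13 matrix proteases and inhibitors 8 reached the floor and 7 were lower (median −2.12), among them the membrane protease Mmp14, with 7.26 RPKM in the colonies, against 49.0, 44.5 and 88.3 RPKM in MEF, and the urokinase gene Plau. The floor was reached in MEF replicate 3 alone by 3 of the 5 EMT and adhesion genes and by 6 of these 8. The integrin list had 2 of 13 at the floor, with Itgb1, the common beta chain, lower and Itga5 not called.

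Imprinted genes, expressed from 1 parental allele and many of them active in growing embryonic tissue, were lower in 12 of the 13 that reached the floor among 21 measured, with a median of −2.32 over the 21. Of the 13, 7 reached the floor in MEF replicate 3 alone. Their median was −2.65 against MEF replicate 3 and −1.5 against the mean of replicates 1 and 2 for all 13. Some calls rested mainly on MEF replicate 3, such as Igf2r, with 1.965 RPKM in the colonies, against 2.14, 2.18 and 7.60 RPKM in MEF. The growth factor Igf2 had 5.65 RPKM in the colonies, against 286, 291 and 607 RPKM in MEF, 107-fold lower by reads (101 to 115). The noncoding RNA H19, its neighbour, had 145 RPKM in the colonies, against 1349, 1343 and 3649 RPKM in MEF, 25.2-fold lower (24.4 to 26.1). In the clusters and both GFP-negative libraries Igf2 stood at 60.1 to 110 RPKM, above the colonies and below MEF. Cdkn1c, an inhibitor of cyclin-dependent kinases, had 13.8 RPKM in the colonies, against 46.8, 47.8 and 523 RPKM in MEF. The 1 higher member was Peg10, a gene of retrotransposon origin needed in placenta, with 10.4 RPKM in the colonies, against 2.12, 3.59 and 2.50 RPKM in MEF. Of 22 Hox genes 2 reached the floor, Hoxc8 and Hoxd8, both in MEF replicate 3 alone and both lower (median over the list −1.01).

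**Figure D5:**
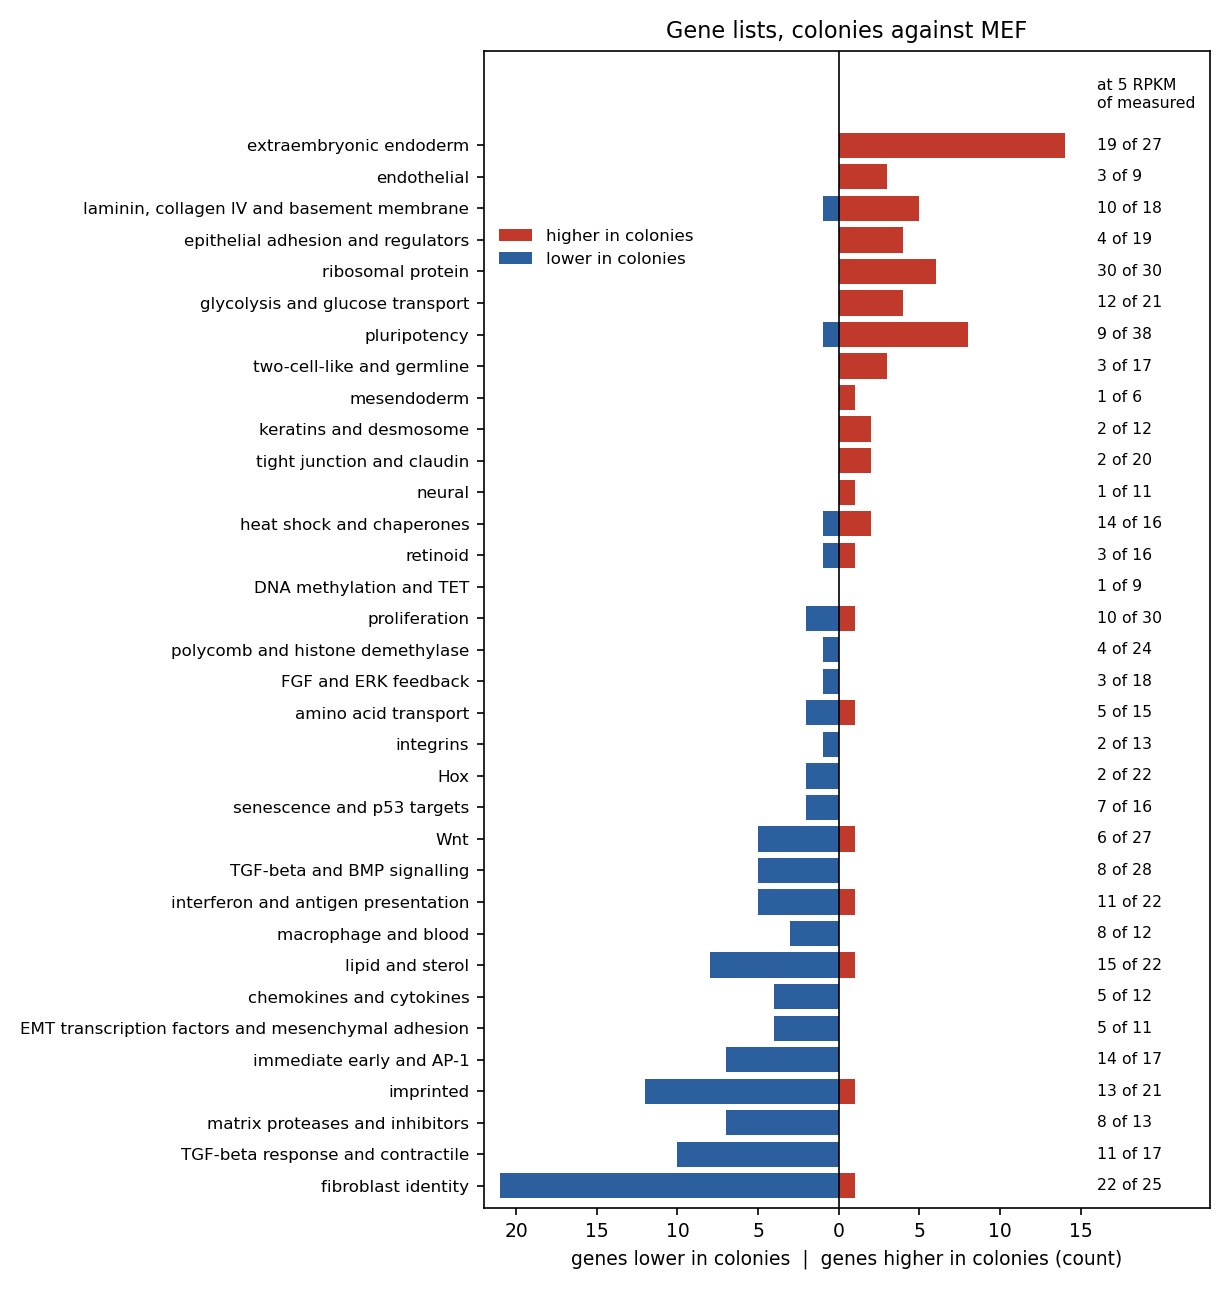
Counts of genes higher (right of 0) and lower (left of 0) in the colonies for each of 34 gene lists with a member at the floor; the numbers at the right give how many of the measured members reached 5 RPKM. The extraembryonic endoderm list has the longest bar on the right with 14 genes, and the fibroblast list the longest on the left with 21.

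Among genes of 4 signalling lists that were called, all but the Wnt antagonist Dkk1 were lower. Of 27 Wnt genes 6 reached the floor, with the receptors Fzd1, Fzd2 and Fzd7 and the secreted antagonists Sfrp1 and Sfrp2 lower and the antagonist Dkk1 higher. Dkk1 had 19.3 RPKM in the colonies, against 0.0443, 0.104 and 0.547 RPKM in MEF, and Sfrp2 1.20 RPKM in the colonies, against 39.1, 37.6 and 109 RPKM in MEF. Of 28 TGF-beta and BMP genes 8 reached the floor and 5 were lower, the ligands Bmp4 and Tgfb3 and the BMP targets Id2, Id3 and Id4. Bmp4 had 0.209 RPKM in the colonies, against 14.3, 9.34 and 6.64 RPKM in MEF. Of 18 FGF and ERK feedback genes 3 reached the floor and Spry1, a feedback inhibitor, was lower. Of 17 immediate early genes, the fast transcriptional response to growth factors and handling, 14 reached the floor with 7 lower and 0 higher. Egr1 had 10.5 RPKM in the colonies, against 84.2, 70.2 and 99.6 RPKM in MEF, and Fos 4.77 RPKM in the colonies, against 41.6, 37.0 and 82.8 RPKM in MEF. Most Wnt and TGF-beta and BMP genes at the floor reached it in MEF replicate 3 alone (4 of 6 and 5 of 8). Medians over all measured members were −0.27 for Wnt, −0.25 for TGF-beta and BMP, −0.07 for FGF and −1.30 for immediate early genes.

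Immune genes were lower where they were called, with 1 exception. Over all 2954 genes compared 13.2% were lower and 21.6% higher. Of 22 interferon and antigen presentation genes 11 reached the floor, with Isg15, Irf7, Tapbp, Ifitm2 and Ifitm3 lower and the immunoproteasome subunit Psmb9 higher (median −0.75 over the 22). The other 5 of the 11 were not called. The median of the 11 was −1.05 against MEF replicate 3 and −0.54 against the mean of replicates 1 and 2. Isg15, a ubiquitin-like protein induced by interferon, had 4.57 RPKM in the colonies, against 65.3, 59.3 and 23.6 RPKM in MEF. Of 12 chemokine and cytokine genes 5 reached the floor and 4 were lower, among them Csf1, the growth factor of macrophages, with 0.82 RPKM in the colonies, against 51.2, 49.2 and 9.69 RPKM in MEF. All 5 reached the floor in MEF replicate 3 alone, so none of them could be called higher.

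Markers of macrophages moved with the choice of MEF library. All 8 of the 12 measured macrophage and blood genes that reached the floor were past the threshold against MEF replicate 3, but 5 of them lay inside the MEF range, and 3 were called lower (Lyz2, C1qa and Coro1a). The summed level of the 12 genes was 30.0 RPKM in the colonies, against 25.0, 40.2 and 288 RPKM in MEF. Lysozyme (Lyz2) had 2.69 RPKM in the colonies, against 15, 22.6 and 97.2 RPKM in MEF, and C1qa, a complement subunit, 0.448 RPKM in the colonies, against 1.11, 0.507 and 39.5 RPKM in MEF. Cd68, a lysosomal protein, had 15.8 RPKM in the colonies, against 2.56, 5.86 and 71.7 RPKM in MEF. None of the 12 was at 0 in the colonies or in MEF. The part of macrophage RNA in the differences between the colonies and MEF replicate 3 was not tested.

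Markers of other cell types were sparse. The muscle, keratinocyte and trophoblast lists had 0 members at the floor out of 13, 5 and 9 measured, with summed levels of 5.65, 2.78 and 3.32 RPKM in the colonies. The muscle regulators Myod1 and Myog, the keratins Krt5, Krt14 and Krt17 and the trophoblast factor Cdx2 were at the fill value in the colonies. Of 9 endothelial genes 3 reached the floor, in the colonies alone, and all were higher: the cadherin Cdh5, with 5.42 RPKM in the colonies, against 0.142, 0.0144 and 0.291 RPKM in MEF, the junction protein Esam, with 13.4 RPKM in the colonies, against 0.0165, 0.044 and 0.152 RPKM in MEF, and the secreted protein Egfl7. The defining endothelial genes Pecam1 and Kdr had 0.119 and 0.072 RPKM in the colonies. The neural list had 1 of 11 at the floor, the neurofilament gene Nefl, and the mesendoderm list 1 of 6, Foxa2. Both reached it in the colonies alone and were higher, and the mesendoderm regulators T and Mixl1 were at the fill value in the colonies.

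Among metabolic genes, calls were on the higher side for glycolysis and mainly on the lower side for lipid and sterol genes. Of 21 glycolysis and glucose transport genes 12 reached the floor, with 4 higher and 0 lower and a median of 0.49 over the 21. Over all 2954 genes compared 21.6% were higher and 13.2% lower, so a count as small as 4 of 12 sets no direction for the pathway. The glucose transporter Slc2a3 had 7.88 RPKM in the colonies, against 0.16, 0.23 and 0.315 RPKM in MEF, Pfkl, a subunit of phosphofructokinase, 13.8 RPKM in the colonies, against 0.291, 0.699 and 3.21 RPKM in MEF, and Gapdh 77.0 RPKM in the colonies, against 18.0, 14.7 and 25.3 RPKM in MEF. Of 22 lipid and sterol genes 15 reached the floor, 9 of them in MEF replicate 3 alone, with 8 lower and 1 higher (median −0.76). The lower ones included the sterol synthesis enzymes Sqle, Idi1, Fdps and Cyp51. Cyp51 had 1.79 RPKM in the colonies, against 7.47, 8.03 and 7.25 RPKM in MEF. The higher one was the fatty-acid-binding protein Fabp3, with 65.8 RPKM in the colonies, against 1.82, 0.213 and 0.923 RPKM in MEF.

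All 30 ribosomal protein genes reached the floor, with 6 higher and 0 lower, beside 21.6% higher and 13.2% lower over the 2954 genes. Their median was 0.82, against 0.38 over the 2954. After scaling the median was 0.50, against 0.01 over the 2729 genes then compared. Of the 6 higher ones, Rpl18, Rpl37, Rplp2, Rps3 and Rps6 were no longer called after scaling. Of 30 proliferation genes 10 reached the floor, with the apoptosis inhibitor and mitotic gene Birc5 higher and the D-type cyclins Ccnd1 and Ccnd2 lower. Ccnd2 had 3.34 RPKM in the colonies, against 46.2, 36.8 and 14.9 RPKM in MEF. The median over these 30 genes was 0.05. Over the 10 at the floor it was 0.12, and −0.35 against the mean of MEF replicates 1 and 2. Over the members at the floor in each other setting, it was −0.71 against MEF replicate 1, −0.97 against replicate 2 and −0.16 after scaling. No direction is given for the proliferation genes. The heat shock list had 14 of 16 at the floor, with Hsp90aa1 and Hspe1 higher and Hspa9 lower. Of 16 senescence and p53 target genes 7 reached it, with Gadd45b and Plk2 lower. Amino acid transport had 5 of 15, with Slc7a6 higher and Slc7a5 and Slc1a5 lower. Polycomb and histone demethylase genes had 4 of 24, with Cbx6 lower, and DNA methylation and TET genes 1 of 9 (Mbd3), not called.

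Of 17 genes of the two-cell-like state and the germline 3 reached the floor, Rhox6, Rhox9 and Gm4340. All 3 reached it in the colonies alone and were higher, with a median of 0.21 over the 17. Gm4340 had 6.12 RPKM in the colonies, against 0, 0 and 0.001 RPKM in MEF, at least 48.5-fold. After scaling it fell under the floor and was not called, with a log2 difference of 2.55. Genes with near-identical copies, such as Rhox6 and Rhox9, Gm4340, Ifitm2 and Ifitm3 and the ribosomal protein genes, may share reads with their copies, and their values are uncertain. Of the named genes that were called, Birc5, Cdh5, Gata6, Gm4340, Hsp90aa1, Hspe1, Lsr, Rpl18, Rpl37, Rplp2, Rps3, Rps6 and Slc7a6 were not called after scaling. Like Gata6 and Gm4340, Cdh5 and Lsr lost their call by falling under the floor, with scaled log2 differences of 2.04 and 2.19. Set against MEF replicate 1 in place of replicate 3, Birc5, C1qa, Cbx6, Ccl9, Col2a1, Coro1a, Crabp1, Gadd45b, Hoxc8, Hsp90aa1, Hspe1, Id3, Ifitm2, Mest, Mfap2 and Plau were not called.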

How the data were processed

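Total RNA of mouse cells was sequenced, and 1 table held an RPKM column per library. The deposited values are RPKM made by the authors, per the file headers. The submitters' processing notes name TopHat 1.3.0 and mm9. What counted the reads, with which annotation, gene lengths, strand setting or filter, is not given in the sources used here. Of 15184 rows in the table, 8 shared 1 identifier and were left out. No column was unused.

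RPKM multiplied by gene span (GENCODE M21, GRCm38, for lengths only, 13671 genes or 90.1%) gave whole multiples of 1 step in 78.6 to 81.2% of low values (tolerance 0.05 steps) in the 10 gene-span libraries. The steps gave estimated reads, an exact Clopper-Pearson 95% counting interval for each ratio of reads, and a depth of 8.91 to 17.74 M reads. A ratio against 0 reads was taken from a floor of 3 reads.

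Differences were of log2(RPKM + 1), pseudocount 1. The members, 37 lists and the naming rule were chosen with earlier results of these data known. The rule took the 15 largest differences in each direction at 10 RPKM or more outside the MEF range, up to 5 called genes per list, and 15 genes whatever their values. Genes named beyond it, such as list members not called, were chosen after their values were seen. Settings tried were another pseudocount, floor, threshold, MEF library, scaling and length. A few genes are not reported here. Scripts were tested on simulated data. Python 3.11.15, numpy 2.4.6, pandas 2.3.3, scipy 1.17.1 and matplotlib 3.10.9 were used.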

Additional observations from a re-analysis of the deposited data

How the results depend on the processing

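The counts of genes higher (639) and lower (389) in the colonies moved with several settings. With no floor on low values 768 genes were lower, and with a floor of 20 RPKM 303 were higher and 122 lower. Set against MEF replicate 1, replicate 2 or the mean of all 3, 1225, 1188 and 1137 genes were higher. After scaling to the median ratio 335 were higher. Per kilobase of exon 1208 were higher and 1118 lower, since 7206 genes reached the floor on that scale. At a log2 difference of 2, 192 were higher and 242 lower. Leaving out each MEF library in turn gave 642 to 1335 higher genes and 412 to 440 lower ones, and the 1335 came without MEF replicate 3. With a pseudocount of 0.1 there were 717 and 411. Of the 128 named genes that were called, none reversed under the 12 settings, of which reads per kilobase of exon covered 125 of them. Of the 128, 49 lost their call at a floor of 20 RPKM, 27 at a log2 difference of 2, 18 against MEF replicate 2, 16 against replicate 1, 16 without replicate 3, 13 after scaling and 8 against the mean of the 3.

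Of 27 list medians, each over the members at the floor in that setting, 20 kept their sign under every setting that gave a value. The sign changed for the heat shock, basement membrane, macrophage, polycomb, proliferation, retinoid and senescence lists. No paired analysis was possible because the colonies had 1 library and no test was made. With 1 colony library the spread between colonies is unknown, and at 10.04 M reads a level under 3 reads was not detectable in the colonies.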

Other observations

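Several genes stayed under the floor of 5 RPKM and so outside the counts, yet had many reads in the colonies and few in MEF. They were picked after their values were seen. Zfp42, a zinc-finger marker of mouse stem cells, had about 343 reads (2.87 RPKM) in the colonies, against 0, 1 and 0 reads in MEF replicates 1, 2 and 3, and ESC replicates 1 to 3 held 28.2, 30.4 and 4.80 RPKM. Dppa2, a chromatin protein of early embryos, had about 359 reads in the colonies and 0 in every MEF library, and Dppa4, its partner, about 155 reads in the colonies, against 0, 2 and 0 reads in MEF. Lin28a, an RNA-binding protein that blocks let-7 maturation, had about 352 reads in the colonies, against 0, 62 and 2 reads in MEF. Dnmt3l, a cofactor of DNA methylation, had 3.89 RPKM in the colonies, against 0.0272, 0.0104 and 0.0144 RPKM in MEF, and ESC held 3.67 to 4.92 RPKM.

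The same was seen outside the pluripotency list. Stra6, the receptor for retinol-binding protein, had 4.85 RPKM in the colonies, against 0, 0 and 0.0242 RPKM in MEF, 200-fold by reads over MEF replicate 3 (95% counting interval 131 to 324). The polarity gene Pard6b had 3.57 RPKM in the colonies, against 0.0501, 0.103 and 0.129 RPKM in MEF. Zscan4c and Zscan4f, near-identical genes of the two-cell-like state with uncertain values, had 3.03 and 3.42 RPKM in the colonies and no read in MEF.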
